A study of Mus musculus with 6 samples.

Results

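The stefin and cystatin inhibitors of cysteine proteases described here are 6 genes, Stfa3, Cstdc4, Csta3, Cstb, Cst3 and Cst7, of 22180 genes measured. They were chosen by symbol, with the probe set annotated to that symbol alone, and for Cst3, which has 2 such probe sets, by the higher mean over the 6 arrays. That mean is the measured value the choice used. The genes were listed with earlier results of these data known, so their differences are a description, and the p-values beside them come from the fit across all genes. The cells were Raw 264.7, an established mouse monocyte and macrophage line, and their RNA was hybridised to whole-transcript arrays. Cells grown with 10% serum were starved and then kept in medium with 2% serum, either with 50 ng/ml of the IL-1 family cytokine IL-33 (3 arrays, labelled IL-33) or without it (3 arrays, labelled PBS). No genotype, time of treatment or statement of separate cultures is given in the sources used here, so p-values cover only a spread among arrays that may be technical. The array names in the sample descriptions carry the letters IL on the arrays titled PBS and P on those titled IL-33. "Lower" and "higher" refer to the arrays titled IL-33 against those titled PBS, and every direction turns if the titles are exchanged.

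Stefins and cystatins are small proteins that block papain-like cysteine proteases by lodging in the active site cleft. Stefins (type 1) lack a signal peptide and act mostly inside the cell, whereas type 2 cystatins carry one and are secreted or sent to lysosomes. Macrophages hold large amounts of their targets, the cysteine cathepsins, which degrade proteins in lysosomes and, in osteoclasts, bone collagen. The human genome has a single stefin A gene, while the mouse has a cluster of related copies known for their expression in neutrophils and other myeloid cells.

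The stefin A copies Stfa3, Csta3 and Cstdc4 fell in the arrays labelled IL-33, to levels 2.99-fold, 2.00-fold and 1.93-fold lower. Cstb, which encodes the intracellular inhibitor stefin B, had a log2 difference of -0.22 and did not pass. The type 2 cystatin genes Cst3 and Cst7 had log2 differences of 0.03 and 0.10 and did not pass. By limma with Benjamini-Hochberg adjustment over all genes, 3 of the 6 genes were lower at an adjusted p under 0.05, where 0.316% of all genes were lower and 0.591% changed in either direction. The stefin A genes lie together on chromosome 16, Cstb on chromosome 10, and Cst3 and Cst7 on chromosome 2.

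The windows upstream of the stefin A genes that fell are shown because these genes differed in the same direction and have related sequence there. Each is the 250 bases before the transcription start in RefSeq (build GRCm38.p6), written 5′ to 3′. Capitals mark the longest stretch identical in the windows of Stfa3, Cstdc4 and Csta3. Stfa2 is added as a copy that holds the stretch and whose difference was above 0.
Stfa3: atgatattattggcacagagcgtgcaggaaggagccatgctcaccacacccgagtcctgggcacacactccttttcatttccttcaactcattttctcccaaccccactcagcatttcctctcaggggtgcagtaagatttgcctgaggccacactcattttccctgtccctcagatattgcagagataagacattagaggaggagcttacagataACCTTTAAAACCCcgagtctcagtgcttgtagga
Cstdc4: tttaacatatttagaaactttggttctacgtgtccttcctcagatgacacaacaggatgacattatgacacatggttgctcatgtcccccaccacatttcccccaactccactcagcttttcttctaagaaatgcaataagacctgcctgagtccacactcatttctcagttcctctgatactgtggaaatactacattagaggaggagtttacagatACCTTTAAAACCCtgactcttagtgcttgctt
Csta3: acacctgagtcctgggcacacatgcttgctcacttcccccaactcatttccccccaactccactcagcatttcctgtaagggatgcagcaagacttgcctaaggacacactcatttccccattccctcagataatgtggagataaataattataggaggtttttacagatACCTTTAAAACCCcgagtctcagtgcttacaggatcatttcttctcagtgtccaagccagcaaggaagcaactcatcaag
Stfa2: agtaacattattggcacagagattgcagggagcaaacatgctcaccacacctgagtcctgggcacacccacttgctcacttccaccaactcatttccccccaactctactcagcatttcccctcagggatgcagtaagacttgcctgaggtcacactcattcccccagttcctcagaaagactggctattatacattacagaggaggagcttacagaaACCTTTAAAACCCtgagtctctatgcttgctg
The windows are chr16:36455393-36455642 on the minus strand, chr16:36183962-36184211 on the plus strand, chr16:36210153-36210402 on the plus strand and chr16:36408364-36408613 on the minus strand. No build is given for the array's own probes in the labels.

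The shared stretch is 13 bases long, ACCTTTAAAACCC, and starts 34 bases before the start of Stfa3, 32 before Cstdc4, 80 before Csta3 and 32 before Stfa2. It was found on either strand in 8 of 32851 windows of this length (0.0244%). Of these, 7 belong to stefin A genes, namely those shown and Stfa2l1, Stfa1 and 1 of the 2 windows of Cstdc3, and the other to Gm7260, a gene inside the same cluster. It was not found in the windows of Csta1, Csta2, Cstdc5, Cst3 or Cst7. Cstb and Cstdc6 were not analysed here. In global alignments the window of Stfa3 shared 68.7% of positions with Cstdc4, 58.6% with Csta3 and 80.4% with Stfa2, against 42.2% with Cst3 and 48.1% with Cst7. Gaps counted as positions in these shares. The stretch starts 80 bases before Csta3 and 34 before Stfa3, so the offset of these windows lowers their share. Identity over the overlapping part alone was not computed. The closest pair of the family by this measure was Stfa2l1 and Stfa2, at 89.4%. The stretch was picked as one shared by Stfa3, Cstdc4 and Csta3, so its presence upstream of the copies that fell is by definition. It was also present upstream of copies that did not pass. Those that did not pass, Stfa2, Cstdc3, Stfa2l1 and Stfa1, were dim, at PBS means of 3.43, 3.97, 5.05 and 5.23. Whether they could have passed at these levels was not tested.

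A set of known motifs was searched in the same windows on both strands, and no matches overlapped in the windows of Stfa3, Cstdc4 and Csta3. The PU.1 core GAGGAA, bound by a factor of myeloid cells, was found 135 bases upstream of Stfa3 and 215 and 80 bases upstream of Cstdc4, and it occurs in 23.3% of all windows. The C/EBP motif TTNNGNAA was found 241 bases upstream of Cstdc4 and 156 bases upstream of Csta3, and it occurs in 36.8% of all windows. The TATA box TATAAA (12.4% of windows), the AP-1 motif TGANTCA (6.75%) and the NF-kB motif (45.8%) were not found in the windows of Stfa3, Cstdc4 and Csta3. Cst3 had 1 match to the PU.1 core and 2 to the NF-kB motif, and Cst7 had 1 to the C/EBP motif. Only these letter patterns were searched, so variant forms of a motif, the TATA box included, were not counted. A match is a description of letters in the window only.

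On the log2 scale the 6 arrays had medians of 5.31 to 5.36 and highest values of 13.62 to 13.66 over 41345 probe sets. The correlation across genes was 0.9972 to 0.9980 within a group and 0.9967 to 0.9971 between the groups. Precision is limited by the number of arrays: a typical gene's log2 difference had a standard error of 0.073 (median). The table holds 23 background control probe sets, named by GC number, whose values ran from 2.42 to 8.90 and were mostly higher at higher GC numbers. Their differences between the groups lay between -0.09 and 0.02. Of 8 macrophage markers 6 lay above all background sets on every array, Lyz2, Cd68, Cd14, Csf1r, Itgam and Adgre1, at PBS means of 11.04 to 12.87. The other two, Fcgr3 and Mrc1, lay within the background range at 6.76 and 4.85. None of the 8 passed, with 1 at an unadjusted p under 0.05, Adgre1 at a log2 difference of -0.29 (limma adjusted p = 0.114).

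Stfa3 (Entrez gene 20863) encodes a stefin A, an inhibitor of cathepsins inside the cell. Its log2 values were 6.76, 6.93 and 6.45 in the arrays labelled PBS and 5.64, 4.73 and 5.03 in those labelled IL-33. All IL-33 values lay below all PBS values, with a gap of 0.81 between the groups, and IL-33 replicate 1 was the highest of its group. The means were 6.72 ± 0.24 (SD, n = 3) and 5.13 ± 0.46 (SD, n = 3), a log2 difference of -1.58 ± 0.23 (SE) with a 95% interval of -2.13 to -1.03 (limma adjusted p = 0.0470). The name Stfa3 is also listed as an older synonym of Stfa1 (Entrez gene 20861), and the genes were told apart by their Entrez numbers.

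Csta3 (Entrez gene 408196), a further stefin A copy, had log2 values of 6.89, 6.70 and 6.83 in the arrays labelled PBS. In the arrays labelled IL-33 they were 6.07, 5.82 and 5.52. The groups did not overlap, the gap between them was 0.63, and the spread was wider in the IL-33 group. The means were 6.81 ± 0.10 and 5.80 ± 0.27 (SD, n = 3 each), a log2 difference of -1.00 ± 0.13 (SE) (limma adjusted p = 0.0351).

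Cstdc4 (Entrez gene 433016), a stefin-like gene with a cystatin domain, had log2 values of 8.57, 8.27 and 8.16 in the arrays labelled PBS. The IL-33 values were 7.35, 7.35 and 7.44. Here the spread was wider in the PBS group, and the groups were apart by 0.71. The means were 8.33 ± 0.21 and 7.38 ± 0.05 (SD, n = 3 each), a log2 difference of -0.95 ± 0.11 (SE) (limma adjusted p = 0.0206).

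Cstb (Entrez gene 13014) encodes stefin B, a broadly expressed inhibitor in the cytosol and nucleus. Its log2 values were 12.28, 12.22 and 12.24 in the arrays labelled PBS and 12.12, 11.98 and 12.00 in those labelled IL-33. All 3 IL-33 values were below the PBS values, with a gap of 0.10, as was so for 10.1% of all genes. The log2 difference was -0.22 ± 0.06 (SE), with a 95% interval of -0.35 to -0.08, and the adjusted p was 0.178 (limma). It passed in 2 alternatives, at limma adjusted p = 0.0445 when genes below the median level were left out and 0.00450 with a trended and robust prior variance, which called 6.85% and 4.51% of the genes tested.

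Cst3 (Entrez gene 13010) encodes cystatin C, a secreted inhibitor made by most cells. Its log2 values were 12.65, 12.63 and 12.66 in the arrays labelled PBS and 12.67, 12.67 and 12.70 in those labelled IL-33. The groups were apart by 0.01, with the IL-33 values above, as was so for 10.3% of all genes. The log2 difference was 0.03 with a 95% interval of -0.08 to 0.14 (limma adjusted p = 0.826). Its other probe set, with values of 9.49, 9.38 and 9.57 against 9.49, 9.56 and 9.49, gave a difference of 0.03 with overlapping groups. The probe set used lay close to the highest values on these arrays.

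Cst7 (Entrez gene 13011) encodes cystatin F, a cystatin of blood cells that is sent to lysosomes and inhibits cathepsin C. Its log2 values were 7.49, 7.61 and 7.58 in the arrays labelled PBS. The IL-33 values were 7.79, 7.61 and 7.56, so the groups overlapped, with IL-33 replicate 1 the highest array. The log2 difference was 0.10 with a 95% interval of -0.08 to 0.27 (limma adjusted p = 0.648).

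**Figure D1:**
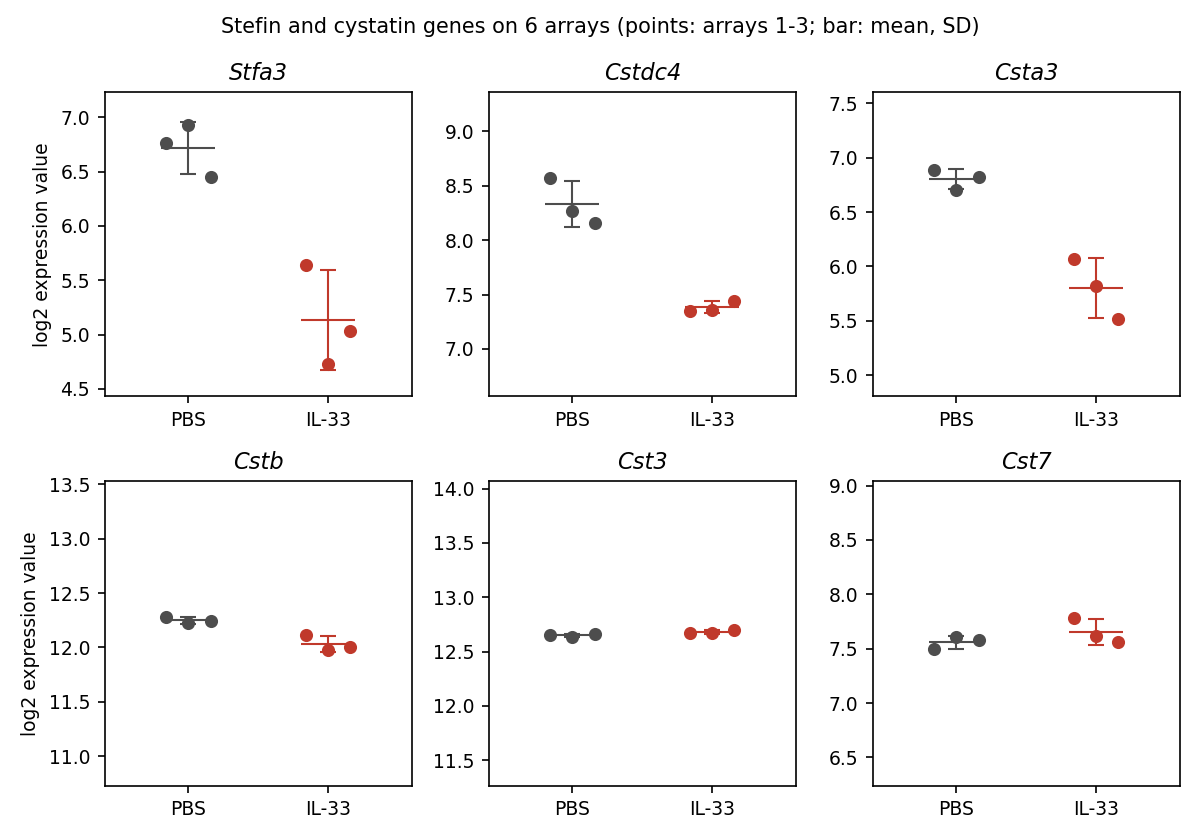
Log2 expression values of the 6 genes on each array (points, replicates 1 to 3 from left to right) with the group mean and SD (bars), on axes of equal span. Stfa3, Cstdc4 and Csta3 are separated between the groups by gaps of 0.81, 0.71 and 0.63, while Cst3 and Cst7 lie at nearly the same level in both.

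Cstb and Cst3 lay above all 23 background sets on all 6 arrays. Stfa3, Cstdc4, Csta3 and Cst7 lay within the range of those sets, and the GC content of their probes was not used here. How much of their signal is background was not tested. Array values near background can understate a fold, and whether they do so for these genes was not tested.

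Each of the called stefin A genes lost its call in 5 of the 6 fits with an array left out. Stfa3 kept an adjusted p under 0.05 without IL-33 replicate 1, at 0.0216 (limma), and lost it in the other fits. These gave 0.195, 0.146 and 0.118 with PBS replicates 1, 2 and 3 left out in turn, and 0.141 and 0.210 with IL-33 replicates 2 and 3. Csta3 likewise kept it only without IL-33 replicate 1, at 0.0258 (limma). Leaving out PBS replicates 1, 2 and 3 gave 0.163, 0.0917 and 0.131, and leaving out IL-33 replicates 2 and 3 gave 0.150 and 0.0811. Cstdc4 kept it only without PBS replicate 1, at 0.0323 (limma). The other PBS replicates, 2 and 3, gave 0.0704 and 0.0551 when left out, and the IL-33 replicates gave 0.0635, 0.113 and 0.100. Over these fits the log2 difference ran from -1.83 to -1.38 for Stfa3, from -1.13 to -0.86 for Csta3 and from -1.04 to -0.83 for Cstdc4, so the direction was the same in each. Of all genes, these fits called 0.0857%, 0.162% and 0.0721% when PBS replicates 1, 2 and 3 were left out in turn and 0.374%, 0.0676% and 0.0857% for the IL-33 replicates. An exact permutation test of 3 against 3 arrays cannot give a two-sided p below 0.1.

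**Figure D2:**
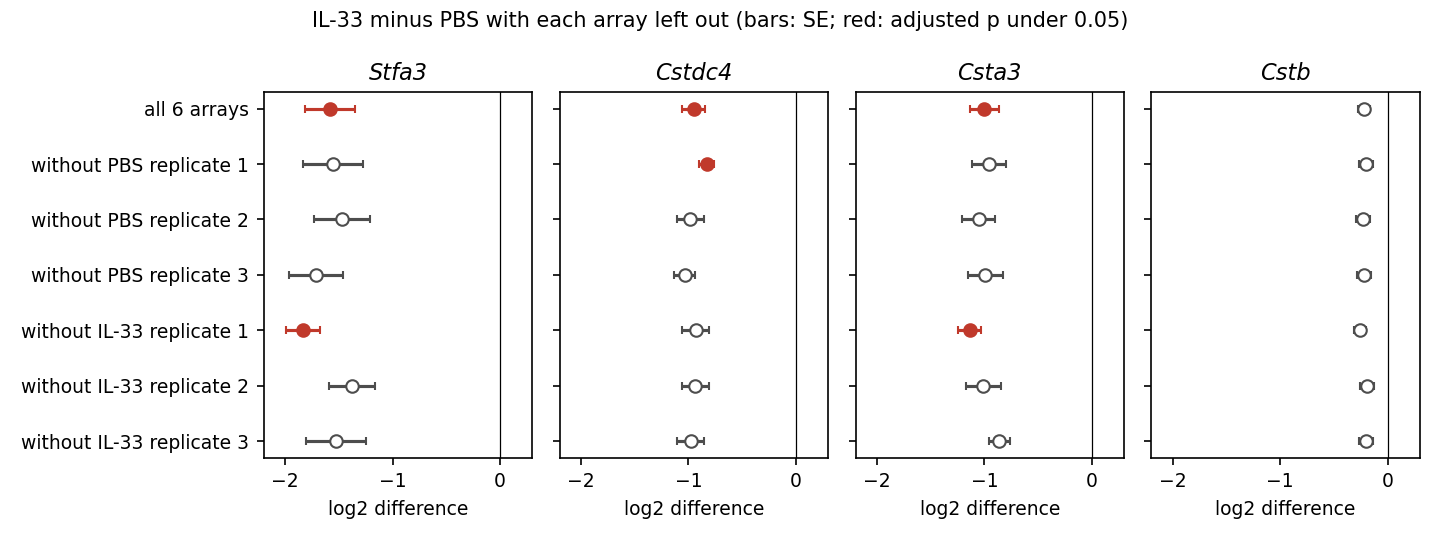
Log2 difference (IL-33 minus PBS) of Stfa3, Cstdc4, Csta3 and Cstb with all 6 arrays and with each array left out; bars are standard errors and filled red points have an adjusted p under 0.05 in limma. Every point lies below 0, and with an array left out Stfa3 and Csta3 stay red only without IL-33 replicate 1, Cstdc4 only without PBS replicate 1.

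The stefin A cluster holds 11 stefin A genes among 22 annotated genes from Csta1 to Stfa3, and all 11 had a probe set annotated to them alone. Gm7260, a protein-coding gene of the cluster that is not on the stefin A list, had no such probe set and was not measured here. None of 1814 probe sets with several symbols carried a stefin A symbol, so no relative had to be left out as not separable by annotation. The copies are similar in sequence, and how far transcripts of 1 copy bind probes of another was not tested. Of the 11, the 3 described above were lower, none was higher and 8 did not pass. Over all genes 0.316% were lower and 0.275% higher. The 3 are among the genes that were listed with earlier results of these data known. The median log2 difference of the 8 that are not among the 6 genes was -0.11, against -0.01 over all genes, with 5 below 0. Of these 8, 3 had an unadjusted p under 0.05, as did 13.2% of all genes.

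Stfa2l1, the copy next to Cstdc4 in the cluster, had log2 values of 5.07, 4.88 and 5.22 in the arrays labelled PBS and 4.61, 4.57 and 4.31 in those labelled IL-33. The groups did not overlap, and the difference was -0.56 ± 0.11 (SE) (limma adjusted p = 0.101). Stfa2l1 passed with a trended and robust prior variance (limma adjusted p = 0.0182), as the 4th stefin A gene called in that setting. That setting called 4.51% of all genes, against 0.591% in the main fit. Cstdc6 had 4.17, 4.43 and 4.47 against 4.04, 3.51 and 3.98, also without overlap, a difference of -0.52 (limma adjusted p = 0.216). Csta2 had overlapping groups, at 4.94, 5.02 and 5.23 against 5.16, 5.32 and 5.54, a difference of 0.28 (limma adjusted p = 0.373). Stfa2l1, Cstdc4 and Csta3 are consecutive stefin A genes along the chromosome, and Stfa3 lies at the other end.

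The other copies had overlapping groups. Stfa1 differed by -0.32 with a 95% interval of -0.80 to 0.17, and PBS replicate 1 alone was high, at 5.72 against 5.06 and 4.91 in its group. Cstdc3 differed by -0.23, Stfa2 by 0.19, Csta1 by 0.00 and Cstdc5 by 0.03, and the other probe set of Cstdc5 by -0.10. By limma these 5 genes had adjusted p from 0.575 to 0.996. Stfa2, Csta1, Cstdc3, Cstdc5 and Stfa1 were dim, at PBS means of 3.43, 3.54, 3.97, 4.09 and 5.23. The copies that fell, Stfa3, Csta3 and Cstdc4, were the brightest of the 11, at PBS means of 6.72, 6.81 and 8.33. Whether the dimmer copies could have shown a fall was not tested. None of the 11 stefin A genes lay above all background sets on any array.

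**Figure D3:**
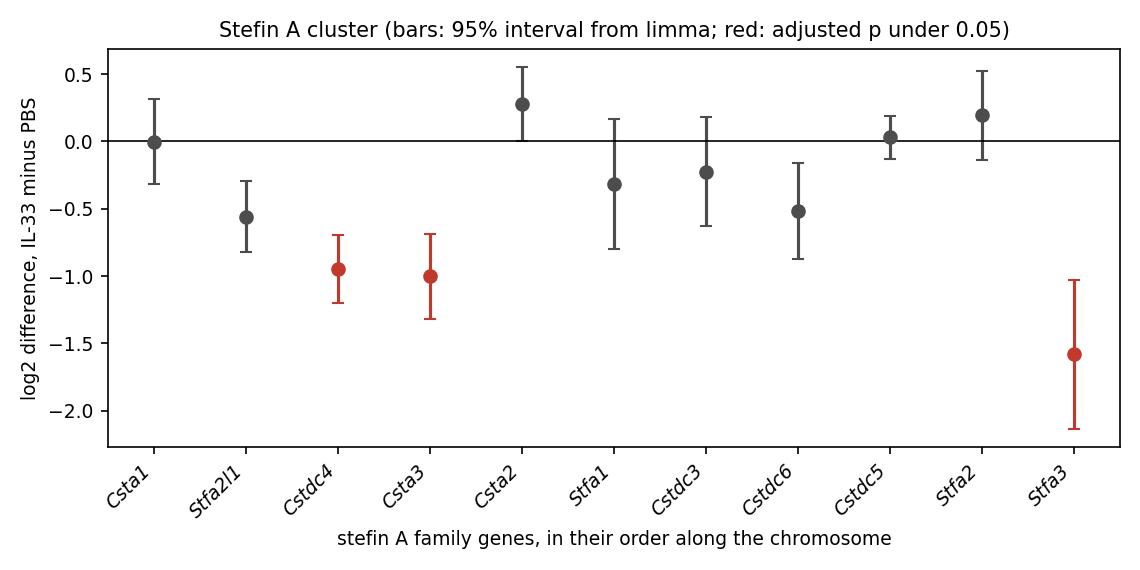
Log2 difference (IL-33 minus PBS) of the 11 stefin A genes in their order along the chromosome, with 95% intervals from limma; red marks an adjusted p under 0.05. Cstdc4, Csta3 and Stfa3 lie at -0.95, -1.00 and -1.58, and Csta2 and Stfa2 lie above 0.

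Of the other type 2 cystatin genes, several of them known from the male reproductive tract, 9 were measured and none passed (limma), with 2 at an unadjusted p under 0.05. Their median log2 difference was -0.06, with 6 below 0. Cstl1, a cystatin-like gene, had log2 values of 7.69, 7.55 and 7.78 in the arrays labelled PBS and 7.15, 7.11 and 7.31 in those labelled IL-33. Its groups did not overlap, and the difference was -0.48 ± 0.08 (SE) (limma adjusted p = 0.0672). Its limma adjusted p was 0.0145 when the dimmer genes, below the median level, were left out, and 0.00442 with a trended and robust prior variance. These settings called 6.85% and 4.51% of the genes tested. The others were Cst6, at -0.20, Cst12, at 0.13, and Cst9, Cst10, Cst11, Cst13, Cstdc1 and Cstdc2, at -0.12 to 0.08. None of 5 kininogen, fetuin and histidine-rich glycoprotein genes, distant relatives made by the liver, passed (limma), with 1 at an unadjusted p under 0.05, Hrg at -0.20, and Fetub was next at 0.13.

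The proteases that these inhibitors block showed no change that passed. Of 11 cysteine cathepsin and legumain genes none passed (limma), with 2 at an unadjusted p under 0.05, and the median log2 difference was 0.03. Groups were apart with the IL-33 values higher in 5 of the 11 and lower in 1, where this was so for 10.3% and 10.1% of all genes. The 5 were Ctsc, with a gap of 0.10 between the groups, and Ctso, Lgmn, Ctss and Ctsl. Of these, Ctso, Lgmn, Ctss and Ctsl had narrow gaps of 0.02, 0.01, 0.01 and 0.003.

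Ctsk, the collagen-degrading protease of osteoclasts, had log2 values of 8.24, 8.20 and 8.16 in the arrays labelled PBS and 7.89, 7.59 and 7.80 in those labelled IL-33. Its difference was -0.44 ± 0.08 (SE) (limma adjusted p = 0.0864). Ctsk passed in 2 alternatives, at limma adjusted p = 0.0197 without the dimmer genes and 0.00510 with a trended and robust prior variance. These settings called 6.85% and 4.51% of the genes tested. Ctsc, which activates serine proteases of granules and is inhibited by cystatin F, had 10.54, 10.47 and 10.45 against 10.65, 10.64 and 10.72. Its difference was 0.18 ± 0.05 (SE) (limma adjusted p = 0.213), and 0.0161 with a trended and robust prior variance.

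The lysosomal endopeptidases Ctsb, Ctsl and Ctss, which degrade proteins and process antigen, differed by 0.00, 0.03 and 0.05. Their 95% intervals ran from -0.11 to 0.10, from -0.08 to 0.14 and from -0.06 to 0.16. The carboxypeptidase Ctsz differed by 0.01 and the asparagine-specific protease Lgmn by 0.08. Ctsb and Ctsz lay near the top of the scale, at PBS means of 13.13 and 12.98. Ctso, Ctsf, Ctsh and Ctsw differed by 0.11, 0.17, 0.00 and -0.08, and Ctsf, Ctsh and Ctsw lay within the range of the background sets.

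Among 7 calpain and calpastatin genes, a cytosolic protease system, none passed (limma), and none had an unadjusted p under 0.05. The smallest p were those of the calpain subunit Capns1, at -0.10, and the inhibitor Cast, at 0.08. Of 4 aspartic and serine cathepsin genes none passed, with 1 at an unadjusted p under 0.05, the aspartic protease Ctse, at 0.15, next to Ctsd at -0.09. None of 8 myeloid and lysosomal transcription factor genes passed either, with 1 at an unadjusted p under 0.05, the C/EBP family gene Cebpd, which had a log2 difference of 0.31 (limma adjusted p = 0.0986).

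**Figure D4:**
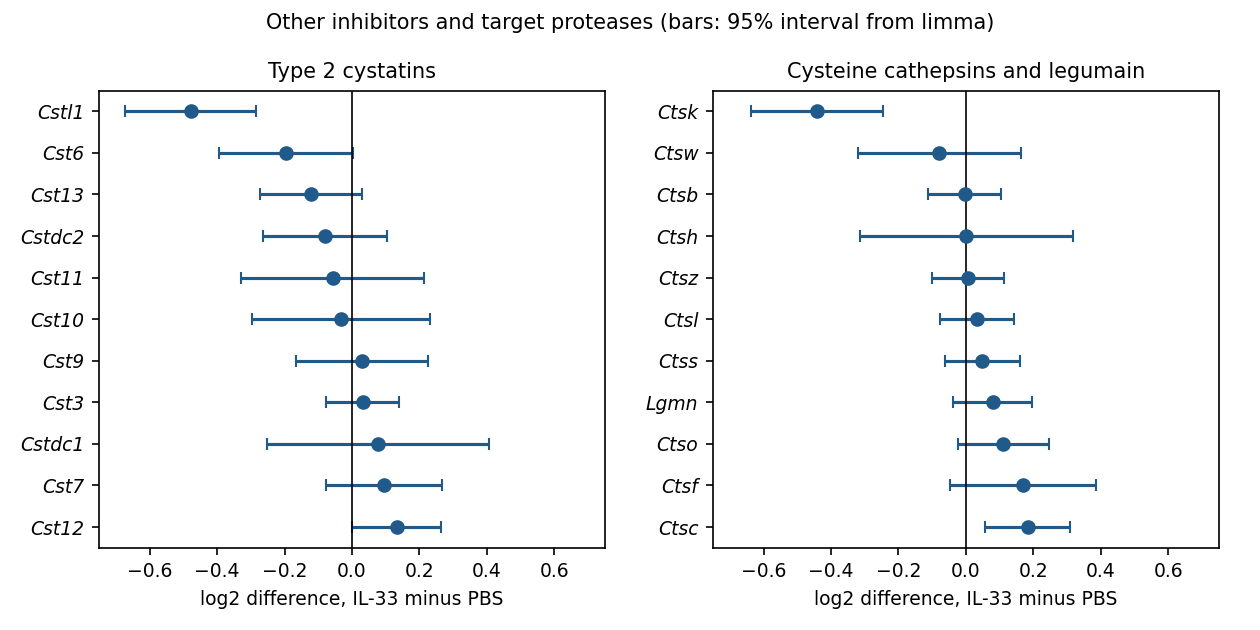
Log2 difference (IL-33 minus PBS) with 95% intervals from limma for 11 type 2 cystatin genes, Cst3 and Cst7 included, and 11 cysteine cathepsin and legumain genes. Cstl1 and Ctsk lie lowest, at -0.48 and -0.44, and no gene of either panel passed at an adjusted p under 0.05.

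Neutrophil markers were followed beside the stefin A genes, since mouse stefin A copies are known from neutrophils. Of 17 such markers 2 were lower and 1 was higher, where 0.316% and 0.275% of all genes were, and 14 did not pass. The list's median difference was -0.07, with 10 of the 17 below 0. Groups were apart with the IL-33 values lower in 4 and higher in 2. S100a8, which encodes a calcium binder abundant in neutrophils, differed by -1.24 (limma adjusted p = 0.00935), and the collagenase Mmp8 by -0.95 (limma adjusted p = 0.0351). Csf3r, the receptor for G-CSF, was higher by 0.63 (limma adjusted p = 0.0408). S100a9, on the same list as S100a8, differed by -0.09 with overlapping groups (limma adjusted p = 0.801). Retnlg differed by 0.28 without overlap (limma adjusted p = 0.226). The mean log2 level of the list was 5.64 to 5.71 in the arrays labelled PBS and 5.54 to 5.64 in those labelled IL-33. Of the 17, only the granule marker Lcn2 lay above all background sets, at 11.60 to 11.67 on the PBS arrays and 11.50 to 11.57 on the IL-33 arrays, without overlap and with a difference of -0.12 that did not pass. The other 16 lay within the background range, among them Prtn3, at a PBS mean of 6.47, and Ngp, Ltf, Camp, Ly6g, Elane and Mpo, at 3.65 to 5.17 on all arrays. The part of these markers in the stefin A differences was not tested. Without single arrays S100a8 had an adjusted p of 0.0251 to 0.0586 and passed in all but the fits without PBS replicate 1 and PBS replicate 3, at 0.0518 and 0.0586, Mmp8 passed only without PBS replicate 1, at 0.0323, and Csf3r in none, at 0.0602 to 0.183 (limma). None of 8 epithelial and none of 6 fibroblast markers passed, with 1 and 0 at an unadjusted p under 0.05. Of 7 lymphocyte markers Ighm was higher by 0.65 (limma adjusted p = 0.0263), and it passed in no fit without an array, at 0.0635 to 0.134. With the mean of all its probe sets the difference of Ighm was 0.15 and did not pass (limma adjusted p = 0.374).

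Genes with the most similar profiles were found for the members whose arrays spanned at least 1 log2 unit. Likeness was the root mean square difference over the 6 arrays after each gene was centred on its own mean, so it follows the group difference and the spread within groups alike. The profile nearest to Stfa3 was that of Il1f9, which encodes IL-36 gamma, at 0.22 log2 units. Il1f9 had log2 values of 10.37, 10.36 and 10.33 on the PBS arrays and 8.81, 8.41 and 8.45 on the IL-33 arrays, a difference of -1.80, with IL-33 replicate 1 the highest of its group as for Stfa3. Then came Serpinb2, a serine protease inhibitor, the integrin Itgax, the chemokine Ccl6 and the glycoprotein Pdpn, at 0.28 to 0.33. The profile nearest to Csta3 was that of Atp6v0d2, a proton pump subunit, with 8.72, 8.60 and 8.50 on the PBS arrays and 7.77, 7.57 and 7.39 on the IL-33 arrays, a difference of -1.03. It lay 0.08 from Csta3, followed by Mustn1, the serine protease inhibitor Serpinb9b, the IL-36 alpha gene Il1f6 and Pdpn, at 0.11 to 0.14. Nearest to Cstdc4 were Mustn1, Il1f6, the somatostatin receptor Sstr5, the gelatinase Mmp9 and Ifi27, all at 0.15. No stefin A copy was among these. Cstdc4 and Csta3 differed from each other by 0.21, Stfa3 and Csta3 by 0.40 and Stfa3 and Cstdc4 by 0.44. Ranked by nearness among all other genes, Csta3 was number 13 and Cstdc4 number 17 for Stfa3, and Csta3 was number 32 for Cstdc4.

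**Figure D5:**
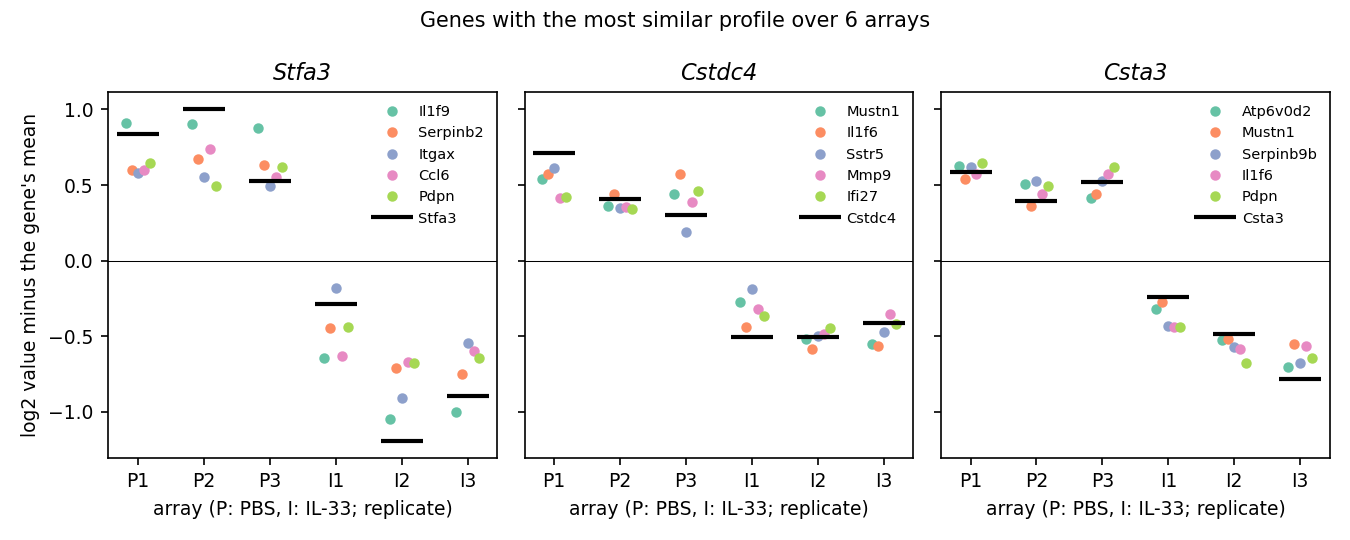
Log2 value minus the gene's own mean on each array (P, PBS; I, IL-33; replicates 1 to 3) for Stfa3, Cstdc4 and Csta3 (black bars) and the 5 genes nearest to each (points). Stfa3 has the widest spread within the IL-33 group, and the genes nearest to Csta3 lie within 0.08 to 0.14 log2 units of it on average.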

How the data were processed

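RNA from each sample was amplified, biotin-labelled and put on its own array (6 in all), per the labels' protocols. The authors deposited 1 log2 value per probe set and array, made with RMA per the submitters' processing notes, with no version named. RMA makes array distributions alike, and differences near background or saturation can be compressed. No pair of arrays was identical.

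Of 41345 probe sets, 23521 carried exactly 1 gene symbol and 1814 several. Where a gene had several, the one with the highest mean over the 6 arrays was kept, which gave 22180 genes. Entrez numbers matched a RefSeq table of GRCm38.p6 for 23328 of the 23521, and 0 symbols changed. Groups came from the sample titles. The test was limma 3.58.1 (R 4.3.3; lmFit, then eBayes) without covariates or a filter, with Benjamini-Hochberg adjustment over all genes and a threshold of 0.05, and the fit was tested on simulated data. Differences are IL-33 minus PBS.

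The members, the 12 gene lists, the rule for named genes and the alternatives (dim-gene filters, scaling, probe set choice, prior variance, array weights, replicate block, each array left out) were chosen with earlier results of these data known. Named were the members and any measured stefin A, cystatin or cysteine cathepsin gene. Of other lists the genes called were named or, where none was, up to 2 with the smallest p. Marker genes were also named for their level, and S100a9 and Retnlg beside the markers called. For members spanning 1 log2 unit or more, the 5 nearest profiles were named. Upstream windows came from RefSeq; identity was computed with Biopython 1.88 (match 1, mismatch -1, gap opening -2, extension -0.5). The protein comparison that was planned was not analysed here. Figures were drawn with matplotlib 3.10.9.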

Additional observations from a re-analysis of the deposited data

How the results depend on the processing

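No difference of the 6 genes changed direction in the 9 other settings or in the 6 fits without an array. The genes called over the whole table were 131, against 760 when genes below the median mean level were left out, 296 when those below the 25th percentile were, 1000 with a trended and robust prior variance, 17 over all probe sets other than controls and 15 to 83 without an array. Stfa3 was not called after a further quantile normalization, at a log2 difference of -1.56 (limma adjusted p = 0.0551). Over all probe sets, where more features are adjusted together, Stfa3, Cstdc4 and Csta3 were not called, at -1.58, -0.95 and -1.00. Without an array they ran from -1.83 to -1.38, from -1.04 to -0.83 and from -1.13 to -0.86. Cstb, at -0.22, was called in the 2 settings named beside it. Cst3 and Cst7 were not called in any of these fits. Both the 6 genes and the stefin A list had 3 called, and each had 0 to 2 without an array. With the trended and robust prior variance each had 4, by Cstb and by Stfa2l1.

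Nothing states that a replicate number marks a shared culture. Deviations of same-numbered arrays correlated at 0.08, 0.09 and 0.02, and not every array correlated best with its own number, so the numbers were not taken as pairs. With the number as a replicate block, 21 genes were called, and 0 of the 6 genes and of the stefin A list, with Stfa3, Cstdc4 and Csta3 at -1.58, -0.95 and -1.00. Neutrophil markers called were 3, and 1 with the block and 0 to 1 without an array. Of the other type 2 cystatins 1 was called in each of the median, 25th percentile and trended settings. Of the cysteine cathepsins 1 was called in the median and 2 in the trended setting. The median, 25th percentile and trended settings called 6.85%, 1.78% and 4.51% of all genes tested in them. The cause of these changes was not tested.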
